A study of Mus musculus with 9 samples.

Results

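Cholesterol synthesis, uptake and transport were followed in fetal mouse gonads through 29 genes, of which 18 encode enzymes of the synthesis route and 11 encode proteins that sense, take up, move or store sterol. The genes were taken by name and matched from symbol to Ensembl gene ID, and all 29 were found among the 15300 genes tested. Along the route, 7 enzymes belonged to the mevalonate and isoprenoid steps, 3 to squalene formation and ring closure, and 8 to the conversion of lanosterol to cholesterol. The other genes comprised 5 of sterol sensing and 6 of uptake, transport and storage.

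Cells build cholesterol from acetyl-CoA by way of mevalonate, isoprenoid units, squalene and lanosterol. When membrane sterol is scarce, the escort protein SCAP carries the transcription factor precursor SREBP from the endoplasmic reticulum to the Golgi, where it is cut and released to switch on synthesis and uptake genes, and INSIG proteins hold the complex back when sterol is plentiful. Steroid-making cells such as fetal Leydig cells of the testis use cholesterol as the starting material for androgens.

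Gene expression had been measured by RNA sequencing of gonads freed from the mesonephros of C57BL/6 fetuses at E13.5 (embryonic day), with 3 samples in each of 3 groups. XX-WT were control ovaries and XY-WT control testes, both with the genotype Sox9flox/flox and called wildtype, and XY-KO were testes with the genotype AMH-Cre; Sox9flox/flox, so that all 9 samples carried floxed Sox9 alleles and only XY-KO carried Cre. The AMH promoter drives Cre in Sertoli cells, the supporting cells of the testis cords, so the other cells of an XY-KO gonad were not targeted. Whether a sample was 1 fetus or a pool is not stated in the labels, and the p-values therefore measure the spread between these samples, which may be technical.

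The files used held the authors' limma result for each pair of groups, and per-sample values were not analysed here. Sequencing depth is therefore unknown, and levels are given per group without an SD. Group levels, in CPM (counts per unit of library size, as the values' range implies), were derived from the authors' mean log2 expression and fold changes on the assumption that the 3 groups weighed equally, and levels of different genes were compared only per kilobase of exon. The 3 comparisons share samples and one estimate of spread, so their results are set side by side and are not independent. Against XY-WT, the labels held: the log2 fold change of Sox9 in XY-KO was -2.76 in the authors' deposited table (adjusted p 8.93e-07, limma), all 8 Sertoli markers were lower in both XY-KO and XX-WT, and all 7 pre-granulosa markers were higher in XX-WT and none was called in XY-KO. In bulk tissue, fewer cells of a type and less RNA per cell cannot be told apart.

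The promoters of the enzymes show what letters the route has in common. RefSeq windows of 300 bases on GRCm38.p6, from 250 before to 50 after the start, were matched for 24 of the 29 genes, 15 of them enzymes. Both strands were searched for TCACNCCAC, the core of the sterol regulatory element that SREBP binds, and for CCAAT, the letters bound by NF-Y, a factor that acts beside SREBP. The 6 windows shown are the first 6 enzymes in pathway order whose window held the element core with at most 1 mismatch in its fixed letters. Each is written 5′ to 3′ on the gene's strand, with capitals on the element core and on CCAAT in either orientation (ATTGG on the other strand).
Acat2 (chr17:12960676-12960975, minus strand): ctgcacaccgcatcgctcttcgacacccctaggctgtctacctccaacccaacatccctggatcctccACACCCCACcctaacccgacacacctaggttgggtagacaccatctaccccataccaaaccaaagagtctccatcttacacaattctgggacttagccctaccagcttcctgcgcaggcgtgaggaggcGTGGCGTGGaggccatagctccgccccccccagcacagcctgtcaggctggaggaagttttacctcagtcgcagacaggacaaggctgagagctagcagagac
Hmgcs1 (chr13:119690101-119690400, plus strand): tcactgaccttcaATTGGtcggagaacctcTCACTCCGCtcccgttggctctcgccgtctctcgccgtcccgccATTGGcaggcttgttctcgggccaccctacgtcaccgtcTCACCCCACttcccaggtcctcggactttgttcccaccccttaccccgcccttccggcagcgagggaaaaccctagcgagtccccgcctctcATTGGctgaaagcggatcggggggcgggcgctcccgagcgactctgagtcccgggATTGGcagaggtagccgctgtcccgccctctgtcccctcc
Cyp51 (chr5:4104648-4104947, minus strand): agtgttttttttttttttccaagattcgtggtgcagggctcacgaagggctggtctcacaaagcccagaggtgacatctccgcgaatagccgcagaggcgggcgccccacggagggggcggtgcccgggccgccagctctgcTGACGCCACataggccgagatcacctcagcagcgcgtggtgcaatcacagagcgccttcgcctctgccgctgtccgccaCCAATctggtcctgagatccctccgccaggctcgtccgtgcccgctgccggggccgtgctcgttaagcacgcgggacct
Msmo1 (chr8:64733529-64733828, minus strand): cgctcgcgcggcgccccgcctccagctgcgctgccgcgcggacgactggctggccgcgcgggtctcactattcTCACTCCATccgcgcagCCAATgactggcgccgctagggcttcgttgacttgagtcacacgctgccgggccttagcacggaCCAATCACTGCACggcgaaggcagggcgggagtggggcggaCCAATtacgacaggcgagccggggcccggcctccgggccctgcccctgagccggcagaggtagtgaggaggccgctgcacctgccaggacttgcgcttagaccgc
Nsdhl (chrX:72918271-72918570, plus strand): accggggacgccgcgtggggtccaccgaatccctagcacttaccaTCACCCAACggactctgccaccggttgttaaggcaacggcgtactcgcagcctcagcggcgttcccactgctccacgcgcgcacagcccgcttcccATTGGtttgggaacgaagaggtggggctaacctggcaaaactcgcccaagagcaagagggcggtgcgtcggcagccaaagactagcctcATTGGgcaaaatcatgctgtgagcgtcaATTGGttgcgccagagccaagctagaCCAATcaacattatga
Hsd17b7 (chr1:169969156-169969455, minus strand): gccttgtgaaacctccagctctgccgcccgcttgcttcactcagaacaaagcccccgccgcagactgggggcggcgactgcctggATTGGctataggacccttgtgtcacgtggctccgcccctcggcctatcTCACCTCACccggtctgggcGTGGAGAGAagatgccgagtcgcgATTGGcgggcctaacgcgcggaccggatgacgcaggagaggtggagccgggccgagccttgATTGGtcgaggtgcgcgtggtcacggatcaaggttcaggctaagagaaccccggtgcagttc

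An exact element core stood in 1 of 15 enzyme windows, that of Hmgcs1 (TCACCCCAC, left end at -137 from the start), against 1.34% of 11051 tested genes with a window and 1.44% of all 27025 genes with one. With 1 mismatch allowed, it stood in 7 of 15 enzymes (46.7%), in 3 of 9 of the other genes (33.3%) and in 29.2% of tested genes. CCAAT was present in 14 of 15 enzymes (93.3%), all but Acat2, and in 6 of 9 of the other genes (66.7%), against 43.0% of tested genes. Among the enzymes, the Mvk window held 5 copies, those of Hmgcs1 and Nsdhl each held 4 and those of Msmo1 and Hsd17b7 each held 3, and in Msmo1 a copy overlapped an element core. GGGCGG, the SP1 letters, occurred in 93.3% of enzymes, 88.9% of the other genes and 67.2% of tested genes. AAGGTCA, read by the gonadal factor NR5A1, was found in Hmgcs1, Dhcr7 and Lrp8, against 3.95% of tested genes, and AACAAT, the SOX letters, in Pmvk alone, against 7.45%. A gene with several windows was counted when any of them held the letters. The AAGGTCA match of Lrp8 lay in a window that starts at 107830703, inside the gene, which starts at 107802261. The last bases of that window, and of the Nsdhl and Sc5d windows, were not found in a transcript. A match describes letters in a window and is no measure of binding.

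**Figure D1:**
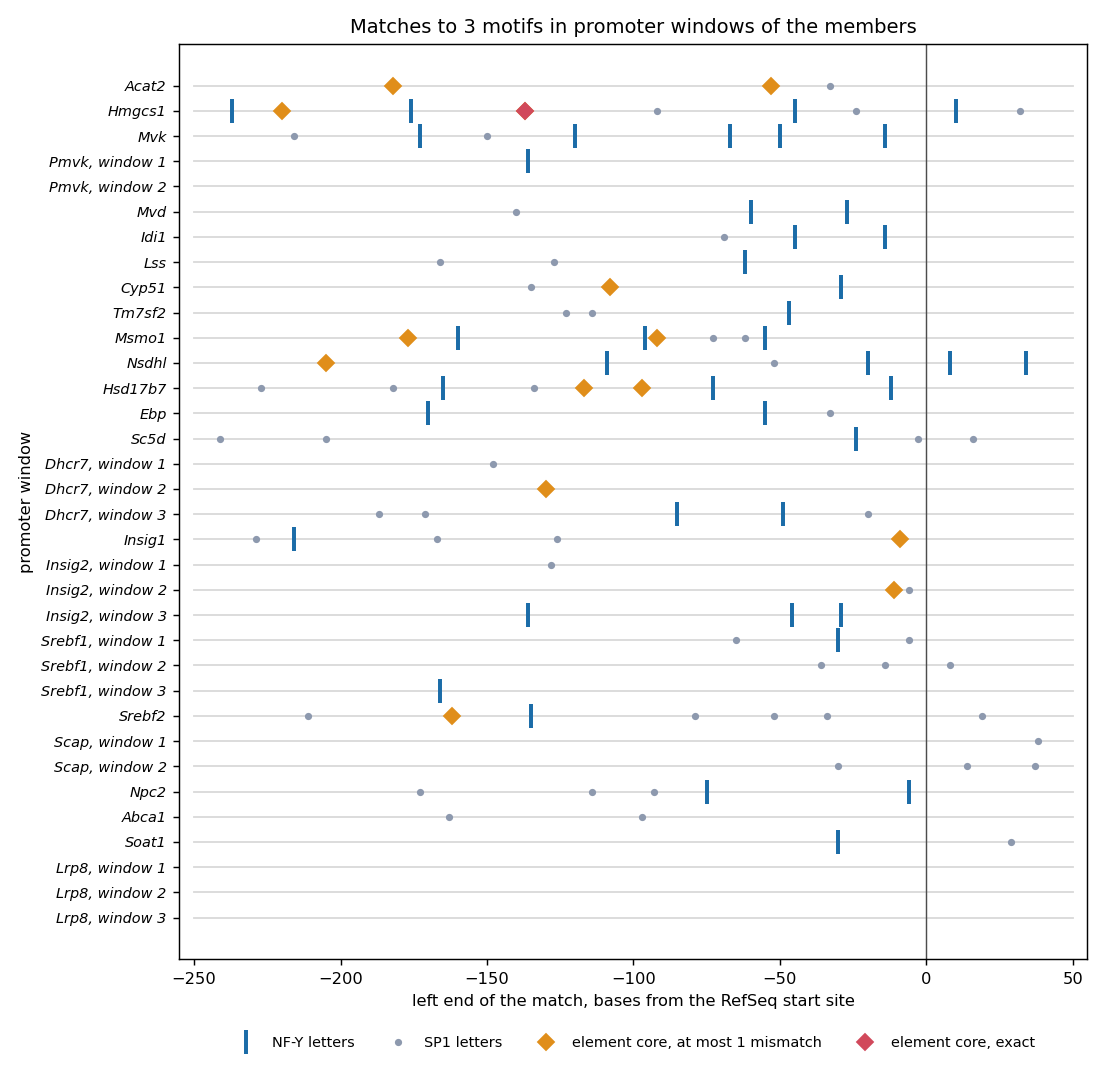
Matches to 3 motifs in the promoter windows of the 24 genes with a RefSeq window, as the distance of the match's left end from the start site in bases (x axis), with 1 line per window. CCAAT marks appear on the lines of 20 of the 24 genes.

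The control ovary held less transcript for most of the cholesterol route than the control testis. In XX-WT against XY-WT, 13 of the 18 enzymes were lower and none was higher, while the other genes were divided, with 4 of 11 lower and 3 higher. Across all genes 12.4% were lower and 10.9% higher by the same rule, a limma adjusted p under 0.05, and among the 7651 genes at or above median expression 14.0% were lower. The authors' deposited table gave all 18 enzymes a negative log2 fold change, from -1.35 to -0.22 with a median of -0.80, against a median of 0.00 over all genes. The median of the 11 other genes was -0.33, within a range of -1.06 to 0.97. No test between the enzymes and the other genes was made.

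**Figure D2:**
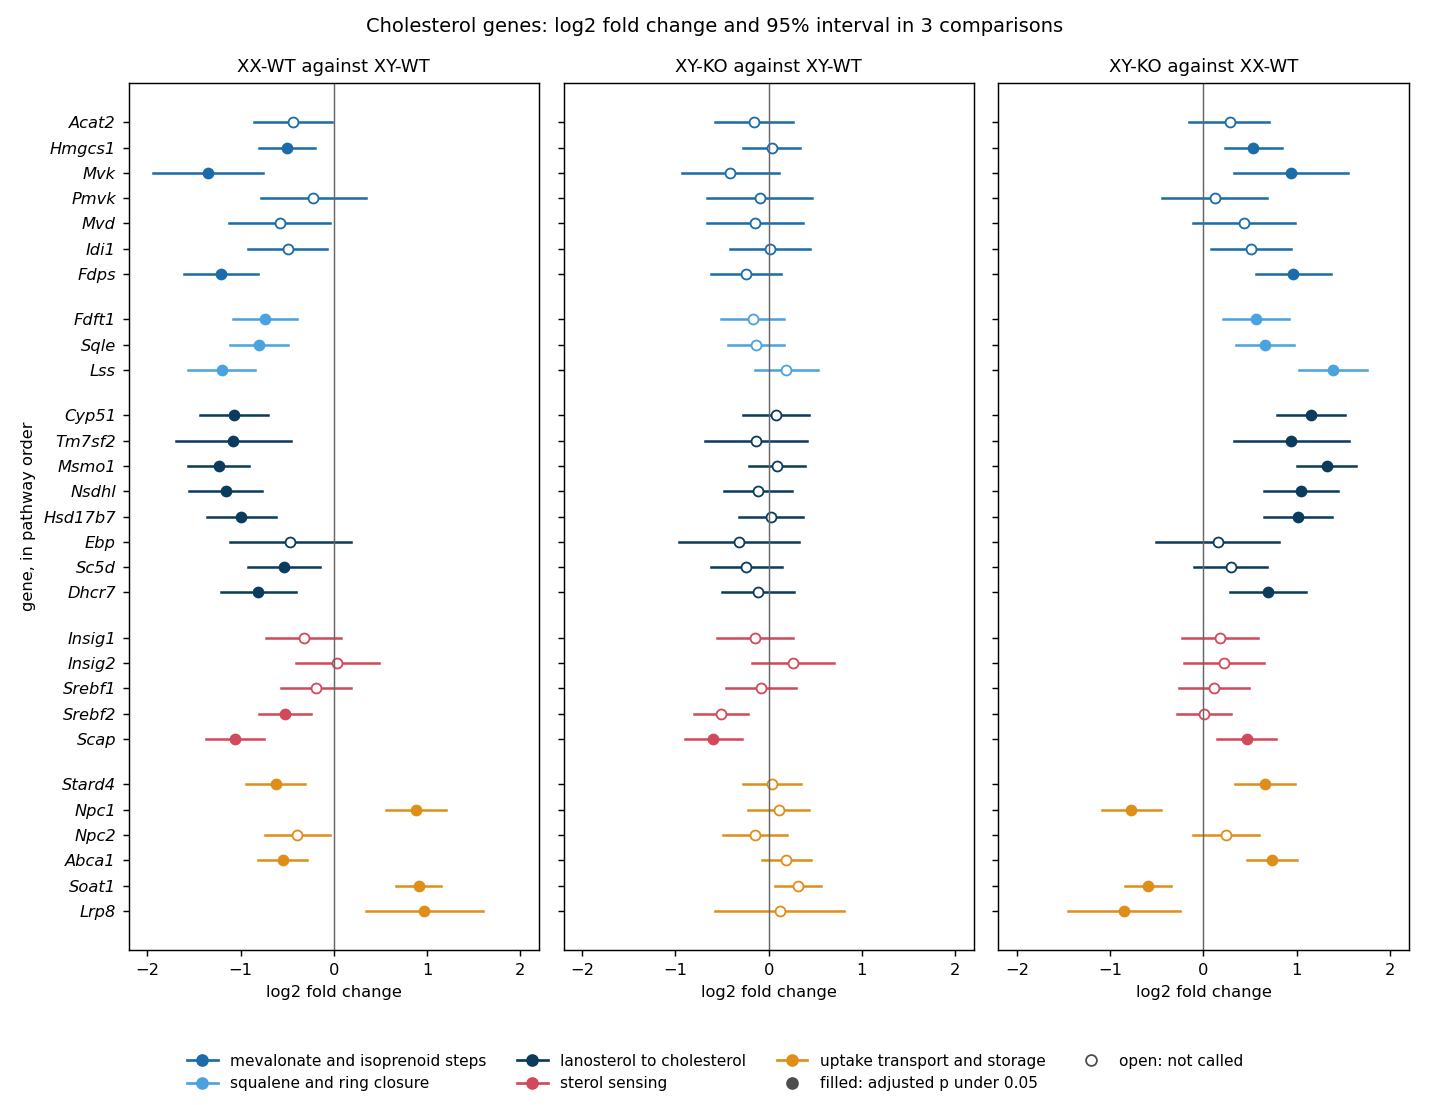
Log2 fold change (x axis) with its 95% interval for the 29 genes in pathway order (y axis), with a panel for each of the 3 comparisons; filled points had an adjusted p under 0.05. Enzyme points lie left of 0 in XX-WT against XY-WT, near 0 in XY-KO against XY-WT, where all intervals stay within 2-fold, and right of 0 in XY-KO against XX-WT.

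Of the mevalonate and isoprenoid steps, 3 of 7 enzymes were lower in XX-WT. Mvk, mevalonate kinase (chromosome 5, 114444269 to 114460591), stood at a derived 6.39 CPM in XY-WT, 4.81 in XY-KO and 2.51 in XX-WT. The authors' deposited table put it at -1.35 (SE 0.278, adjusted p 0.00219, limma) in XX-WT against XY-WT, 2.55-fold lower with a 95% interval of 1.69 to 3.84. Fdps, which makes farnesyl diphosphate (chromosome 3, 89093588 to 89101959), stood at 27.8 CPM in XY-WT, 23.5 in XY-KO and 12.0 in XX-WT. Its authors' deposited table value was -1.21 (SE 0.187, adjusted p 0.000192, limma), 2.31-fold lower. The XX-WT level of both was thus the lowest of the 3 groups. The derived XY-KO levels lay between, but neither gene was called in XY-KO against XY-WT (adjusted p 0.382 for Mvk and 0.483 for Fdps, limma).

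Hmgcs1, which makes HMG-CoA ahead of mevalonate, was the most abundant of the 29 genes per length, at a derived 28.5 CPM per kb in XY-WT, above 96.1% of the genes with a gene model. The authors' deposited table gave it a smaller fall in XX-WT, -0.50 (SE 0.142, adjusted p 0.0182, limma), and its derived levels were 131 CPM in XY-WT, 134 in XY-KO and 92.8 in XX-WT. The remaining 4 did not pass: for Acat2, the thiolase of the first step, the authors' deposited table gave -0.44 (adjusted p 0.124, limma), for Idi1, the isopentenyl diphosphate isomerase, -0.50 (0.088), for Mvd, the decarboxylase, -0.58 (0.117) and for Pmvk, phosphomevalonate kinase, -0.22 (0.599). The interval for Pmvk ran from -0.78 to 0.35, which leaves room for a fall of the size seen in Hmgcs1. Acat2 shares 45.9% of its 50-base stretches with Acat3, Idi1 21.3% with other genes, and Fdps shares 26.7% of its exon bases with Gm43738 on the same strand, so the authors' counts for these 3 are uncertain. Hmgcs1 shares 12.1% of its exon bases with Gm48342 on the other strand.

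All 3 enzymes of squalene formation and ring closure were lower in XX-WT. Lss, lanosterol synthase, which closes the rings (chromosome 10, 76531588 to 76557138), stood at a derived 52.2 CPM in XY-WT, 59.5 in XY-KO and 22.8 in XX-WT. By the authors' deposited table it was 2.29-fold lower in XX-WT than in XY-WT (95% interval 1.79 to 2.94, log2 fold change -1.20, SE 0.169, adjusted p 8.33e-05, limma). Sqle, squalene epoxidase, was lower at -0.80 (SE 0.145, adjusted p 0.000787, limma) and Fdft1, squalene synthase, at -0.74 (SE 0.163, adjusted p 0.00373, by limma) in the authors' deposited table. Fdft1 shares 18.3% of its exon bases with Ctsb on the other strand, and whether the counting used strand is not given in the sources used here.

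From lanosterol to cholesterol, 7 of 8 enzymes were lower in XX-WT, with a median of -1.03. The methylsterol oxidase Msmo1 (chromosome 8, 64718139 to 64733792) stood at a derived 33.1 CPM in XY-WT, 35.1 in XY-KO and 14.1 in XX-WT, and had the smallest adjusted p of the 29 genes. The authors' deposited table gave it -1.23 (SE 0.151, adjusted p 2.12e-05, limma), 2.35-fold lower with an interval of 1.88 to 2.94. Cyp51, the lanosterol demethylase, stood at 62.9 CPM in XY-WT, 66.7 in XY-KO and 30.0 in XX-WT, a 2.1-fold difference between the control gonads in the authors' deposited table (adjusted p 0.000241, limma). Both enzymes take part in removing methyl groups from the sterol rings, and in both the XY-WT and XY-KO levels lay close together above XX-WT.

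The sterol dehydrogenases Nsdhl and Hsd17b7 were lower at -1.16 (SE 0.184, adjusted p 0.000244, limma) and -0.99 (SE 0.174, adjusted p 0.000566, by limma) in the authors' deposited table. Nsdhl lies on the X chromosome. Tm7sf2, a sterol reductase, was lower at -1.08 (SE 0.289, adjusted p 0.0130), Dhcr7, which acts at the end of the route, at -0.81 (SE 0.188, adjusted p 0.00512) and Sc5d, a desaturase, at -0.53 (SE 0.181, adjusted p 0.0444), all by limma in the authors' deposited table. Tm7sf2 shares 12.1% of its exon bases with Vps51 on the same strand, so its counts are uncertain too. It was also low, above 26.6% of the genes with a gene model per kb in XY-WT. Sc5d passed narrowly, with an adjusted p of 0.0616 when the 3 comparisons were adjusted together. Ebp, the sterol isomerase and also X-linked, was the exception at -0.47 (95% interval -1.11 to 0.18, adjusted p 0.292, limma) in the authors' deposited table.

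**Figure D3:**
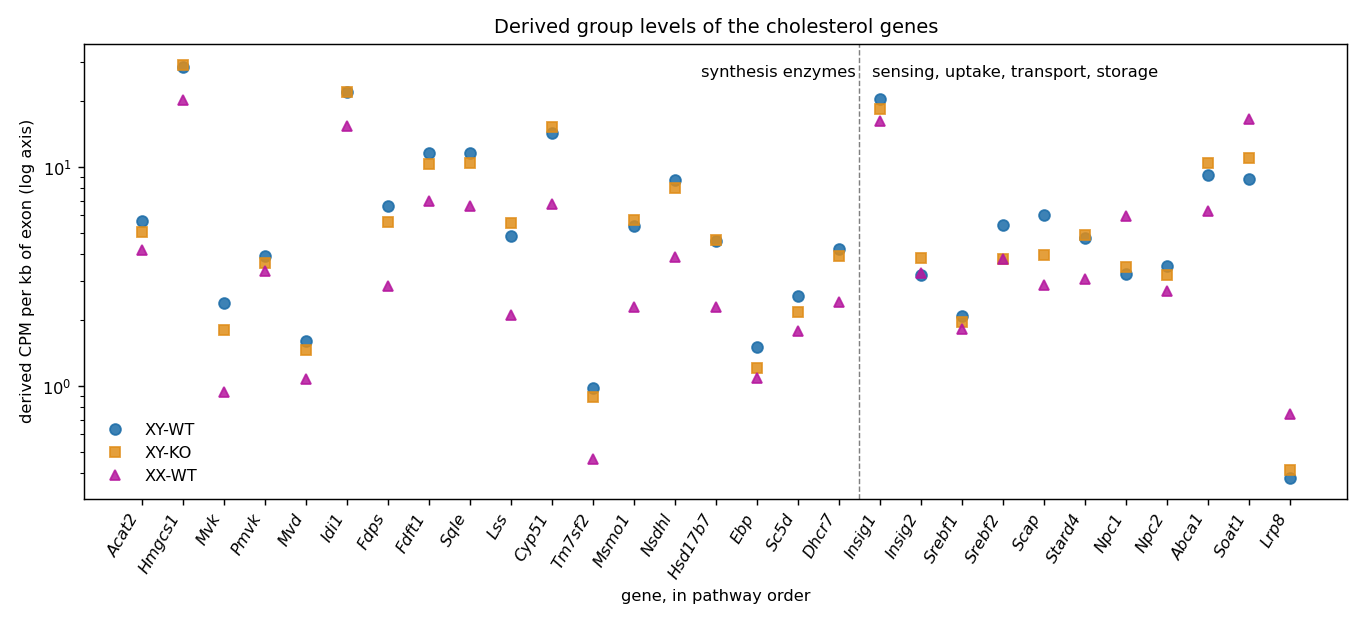
Derived group level of the 29 genes in pathway order, in CPM per kilobase of exon on a log axis, with 1 point per group and no error bars because per-sample values were not analysed. The enzyme points of XY-WT and XY-KO lie close together, with XX-WT below both for all 18 enzymes.

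Summed over the 18 enzymes, the derived level was 619 CPM in XY-WT, 610 in XY-KO and 362 in XX-WT. The part from lanosterol to cholesterol summed to 189, 188 and 94.0 CPM in the same order, and the mevalonate and isoprenoid part to 266, 261 and 180. The 11 other genes summed to 436, 441 and 453 CPM, made up of 169, 138 and 120 CPM of sterol sensing and 267, 303 and 333 CPM of uptake, transport and storage. The enzyme and sensing totals were thus lowest in the ovary. The uptake, transport and storage total was highest there, but Soat1 weighed heavily in it, at 85.7 CPM in XY-WT, 107 in XY-KO and 161 in XX-WT. Of the 6 genes in that total, 3 were higher and 2 lower in XX-WT than in XY-WT. The sums were not scaled to exon length.

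Of the sterol-sensing genes, 2 of 5 were lower in XX-WT. Scap, the SREBP escort (chromosome 9, 110333288 to 110384950), stood at a derived 44.6 CPM in XY-WT, 29.5 in XY-KO and 21.4 in XX-WT. The authors' deposited table put it 2.09-fold lower in XX-WT (95% interval 1.68 to 2.59, log2 fold change -1.06, adjusted p 6.05e-05, limma). With the trend of fold change with GC content and transcript length removed, the Scap value was -0.77. It still passed (adjusted p 0.00118, by t with the limma SE). Srebf2, the SREBP that mainly serves cholesterol genes (chromosome 15, 82147181 to 82205379), stood at 38.9 CPM in XY-WT, 27.3 in XY-KO and 27.1 in XX-WT. The authors' deposited table had it lower in XX-WT, at -0.52 (adjusted p 0.01, limma), and with the trend of fold change with GC content and transcript length removed the value was -0.28 and no longer passed (adjusted p 0.154).

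The other 3 sensing genes did not pass in XX-WT against XY-WT. The authors' deposited table gave Insig1 -0.33 (95% interval -0.73 to 0.08, adjusted p 0.240, limma), Srebf1, the SREBP gene better known for fatty acid synthesis, -0.20 (-0.57 to 0.18, 0.462) and Insig2 0.04 (-0.41 to 0.48, 0.915). Each interval lies within 2-fold.

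Uptake, transport and storage was the step whose members differed in both directions between the control gonads, with 3 of 6 genes higher and 2 lower in XX-WT. Soat1, which joins cholesterol to fatty acid for storage (chromosome 1, 156424525 to 156474331), stood at a derived 85.7 CPM in XY-WT, 107 in XY-KO and 161 in XX-WT. It was 1.88-fold higher in XX-WT than in XY-WT in the authors' deposited table (95% interval 1.59 to 2.22, log2 fold change 0.91, SE 0.113, adjusted p 2.29e-05, limma). Npc1, which exports cholesterol from late endosomes and lysosomes, stood at 36.6 CPM in XY-WT, 39.4 in XY-KO and 67.4 in XX-WT, and was 1.84-fold higher in XX-WT in the authors' deposited table (1.48 to 2.29, adjusted p 0.000416, limma). Lrp8, a lipoprotein-type receptor that binds reelin, was the least abundant of the 29 genes per length in XY-WT, at 0.38 CPM per kb. In XX-WT it stood at 0.744 CPM per kb, above Tm7sf2 at 0.463. Lrp8 was 1.96-fold higher in XX-WT in the authors' deposited table (1.26 to 3.04, adjusted p 0.0277, limma).

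The 2 genes lower in XX-WT move sterol out of or across the cell. Abca1, which exports cholesterol to lipoprotein particles, stood at a derived 94.7 CPM in XY-WT, 108 in XY-KO and 64.8 in XX-WT, and Stard4, a cytosolic sterol carrier, at 26.5, 27.2 and 17.2 CPM in the same order. Their authors' deposited table values in XX-WT against XY-WT were -0.55 (SE 0.121, adjusted p 0.00370, limma) and -0.62 (SE 0.150, adjusted p 0.00639). Npc2, which hands cholesterol to NPC1, did not pass at -0.39 in the authors' deposited table (95% interval -0.74 to -0.04, adjusted p 0.102, limma).

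No enzyme of the route was called in the testis with Sox9 deleted in Sertoli cells. In XY-KO against XY-WT 0 of the 18 enzymes passed by limma, and 1 of the 11 other genes, Scap, was lower, against 1.57% of all genes lower and 0.699% higher. At an unadjusted p under 0.05 there were 0 of the 18 enzymes, 3 of the 11 other genes and 2899 of all 15300 genes. The median log2 fold change of the enzymes was -0.12 (range -0.41 to 0.19) in the authors' deposited table, against -0.01 over all genes. All 18 enzyme intervals, which together ran from -0.96 to 0.53, lay within 2-fold, so a fall of that size was not among the values the intervals hold, whereas changes under 2-fold were. A p that misses the threshold does not show equal expression.

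The enzymes that differed most between the control gonads had these values in XY-KO against XY-WT in the authors' deposited table: Msmo1 0.09 (95% interval -0.21 to 0.39, adjusted p 0.784, limma), Lss 0.19 (-0.15 to 0.53, 0.562), Fdps -0.24 (-0.62 to 0.13, 0.483) and Mvk -0.41 (-0.93 to 0.11, 0.382). Hmgcs1 stood at 0.03 (-0.27 to 0.34, adjusted p 0.922, limma) in the same authors' deposited table. Mvk was the most negative of the enzymes and Lss the most positive.

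By the authors' deposited table, Scap was lower in XY-KO than in XY-WT, with a log2 fold change of -0.60 (SE 0.143, adjusted p 0.0399, limma), or 1.51-fold with a 95% interval of 1.22 to 1.87. It was the only one of the 29 genes called in this comparison. The call depends on the trend of fold change with GC content and length: with the trend removed the value was -0.31 (adjusted p 0.312), and the trend itself put -0.29 on this gene, whose exons are 59.1% GC. Scap also shares 13.2% of its exon bases with 5830462I19Rik on the other strand. Srebf2, 57.9% GC, gave -0.51 (SE 0.135, 95% interval -0.80 to -0.22, adjusted p 0.0634, limma) in the authors' deposited table. Its adjusted p was 0.0179 with the 3 comparisons adjusted together, and its value was -0.28 (adjusted p 0.343) with the trend removed. Soat1 had an unadjusted p of 0.0141 by limma and 0.32 (0.07 to 0.56, adjusted p 0.157) in the authors' deposited table.

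Against the control ovary, most of the route was higher in the testis with Sox9 deleted. In XY-KO against XX-WT, 12 of 18 enzymes were higher and none was lower, against 9.16% of all genes higher, 9.11% lower, and 9.84% higher among genes at or above median expression. The median of the enzymes was 0.68 (range 0.12 to 1.39) in the authors' deposited table, against 0.00 over all genes. By step, 3 of 7 mevalonate and isoprenoid enzymes, all 3 of squalene formation and ring closure, and 6 of 8 from lanosterol to cholesterol were higher. Lss was 2.61-fold higher (95% interval 2.03 to 3.36, adjusted p 2.74e-05, limma) and Msmo1 2.50-fold higher (2 to 3.12, adjusted p 1.36e-05) in the authors' deposited table.

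Among the other genes, 3 were higher and 3 lower in XY-KO than in XX-WT. Those higher were Abca1 at 0.74 (adjusted p 0.000481, limma), Stard4 at 0.66 (0.00502) and Scap at 0.46 (0.0413) in the authors' deposited table. Those lower were Npc1 at -0.78 (adjusted p 0.00147, limma), Soat1 at -0.59 (0.00151) and Lrp8 at -0.85 (0.0469) in the authors' deposited table, and Lrp8 did not pass with the 3 comparisons adjusted together (0.0552). Srebf2 stood at 0.01 (95% interval -0.28 to 0.30, adjusted p 0.972, limma) in the authors' deposited table. Its derived levels in XY-KO and XX-WT, 27.3 and 27.1 CPM, were both below that of XY-WT. Against XY-WT, XX-WT was called lower and XY-KO was not (adjusted p 0.0634, limma). With the trend with GC content and length removed neither passed (0.154 for XX-WT and 0.343 for XY-KO).

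**Figure D4:**
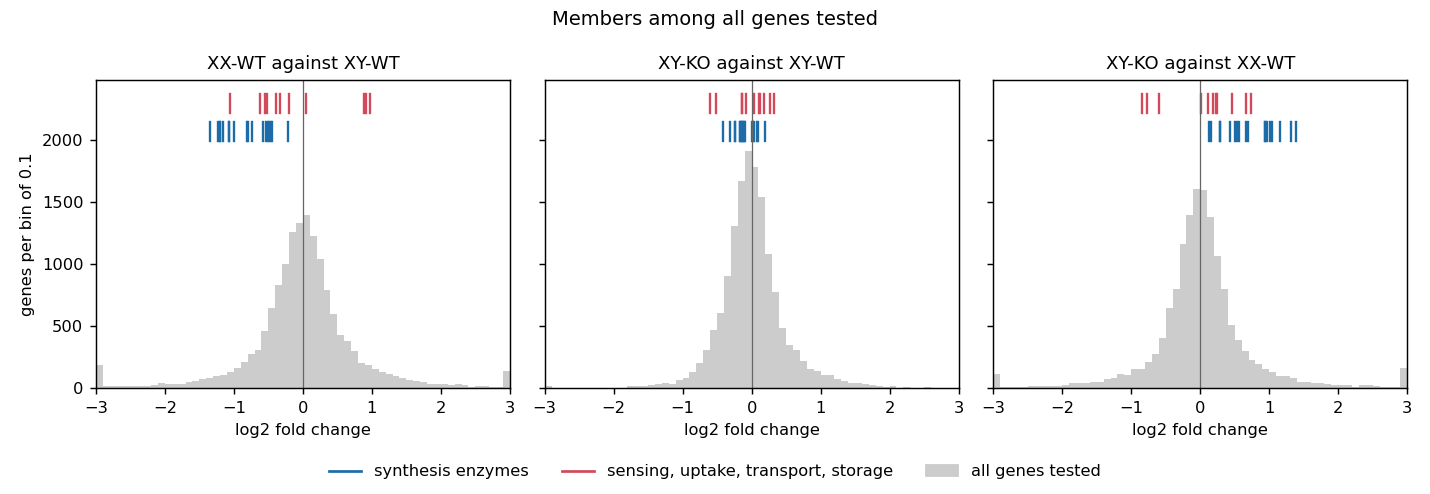
Histograms of the log2 fold change of all 15300 genes in bins of 0.1 (grey, values beyond 3 in either direction counted in the end bins), with the 18 enzymes and the 11 other genes as ticks, in the 3 comparisons. The enzyme ticks lie left of the centre in XX-WT against XY-WT, at the centre in XY-KO against XY-WT and right of it in XY-KO against XX-WT.

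Genes of neighbouring pathways, listed by function, were read the same way, beside the 12.4% of all genes lower and 10.9% higher in XX-WT against XY-WT. Fatty acid synthesis, which draws on the same acetyl-CoA and also answers to SREBP, had 8 of 11 genes lower in XX-WT than in XY-WT (median -0.83) and none called in XY-KO against XY-WT, where the median was -0.31 and 4 had an unadjusted p under 0.05, a limit passed by 2899 of all 15300 genes in that comparison. Me1, the malic enzyme that supplies NADPH, stood at -2.63 (SE 0.126, adjusted p 2.06e-09, limma) and Scd2, a desaturase, at -1.14 (SE 0.126, adjusted p 7.20e-06, by limma) in the authors' deposited table for XX-WT against XY-WT. Of other cholesterol handling genes 5 of 14 were lower and none higher (median -0.37), among them Gramd1b, which moves sterol from the plasma membrane to the endoplasmic reticulum, at -2.67 (SE 0.146, adjusted p 5.31e-09, limma) and Scarb1, the HDL receptor, at -2.08 (SE 0.207, adjusted p 2.59e-06, by limma) in the authors' deposited table. Osbpl2 (0.29, adjusted p 0.128, limma) and Stard5 (0.36, 0.163), both sterol carriers, came nearest to a call in the other direction in the authors' deposited table. In XY-KO against XY-WT, Gramd1b stood at 0.04 (adjusted p 0.888, limma) and Scarb1 at -0.36 (0.314) in the authors' deposited table.

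None of 11 genes of the non-sterol isoprenoid branch, which turns the same isoprenoid units into ubiquinone, dolichol and protein lipid anchors, was called in any of the 3 comparisons, with a median of -0.02 in XX-WT against XY-WT. At an unadjusted p under 0.05 there were 2 in each, against 5413 of all 15300 genes in XX-WT against XY-WT, 2899 in XY-KO against XY-WT and 4513 in XY-KO against XX-WT. Nearest to a call between the control gonads in the authors' deposited table were the prenyl enzymes Ggps1 (-0.39, adjusted p 0.115, limma) and Pggt1b (-0.33, 0.136) on the lower side and the ubiquinone enzymes Pdss1 (0.31, 0.256) and Coq2 (0.21, 0.395) on the higher. Of 11 measured genes that process SREBP or sense sterol beside the members, 1 was called in XX-WT against XY-WT, Mylip, the ligase that degrades lipoprotein receptors, higher at 0.81 (adjusted p 0.0270, limma) in the authors' deposited table. Across all genes 10.9% were called higher and 12.4% lower in that comparison. At an unadjusted p under 0.05 there were 4 of the 11, against 5413 of all 15300 genes. None of these 11 was called in the other 2 comparisons by limma, where 3 (XY-KO against XY-WT) and 1 (XY-KO against XX-WT) had an unadjusted p under 0.05, against the same 2899 and 4513 of all genes. Nr1h2, the oxysterol receptor LXR beta, stood at -0.71 (adjusted p 0.0549, limma) and Faf2 at -0.36 (0.0836) in XX-WT against XY-WT in the authors' deposited table.

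Steroidogenesis, the pathway that uses cholesterol, had 8 of 10 genes lower in XX-WT than in XY-WT (median -3.21), against 12.4% of all genes. In XY-KO against XY-WT 0 were called by limma (median -0.22, 2 at an unadjusted p under 0.05, against 2899 of all genes). Hsd3b1 was lower at -3.99 (adjusted p 7.40e-09, limma) and Cyp17a1, the androgen-forming lyase, at -7.07 (1.06e-08) in XX-WT, and Hsd3b6 stood at 0.68 (0.102), in the authors' deposited table. The genes of this list summed to a derived 818 CPM in XY-WT, 776 in XY-KO and 83.8 in XX-WT. Of the fetal Leydig markers outside these pathways, all 5 measured were lower in XX-WT (median -3.28), 0 were called in XY-KO against XY-WT by limma (1 at an unadjusted p under 0.05, against the same 2899), and their summed level was 374, 400 and 110 CPM in XY-WT, XY-KO and XX-WT. Sertoli markers summed to 516, 172 and 17.3 CPM in the same order of groups, with all 8 lower in XY-KO than in XY-WT. Germ cell markers summed to 328, 272 and 492 CPM, with 3 of 6 higher in XX-WT, pre-granulosa markers to 32.7, 42.0 and 364 CPM, and erythroid markers to 384, 327 and 649 CPM with none of 4 called between the control gonads. Endothelial and macrophage markers ranged from 153 to 165 and from 9.18 to 12.8 CPM. Between the control gonads, 1 of 5 endothelial markers was higher and 2 lower in XX-WT, and 1 of 4 macrophage markers was higher. No marker of either list was called in XY-KO against XY-WT. The part of these cell types in the enzyme differences was not tested.

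**Figure D5:**
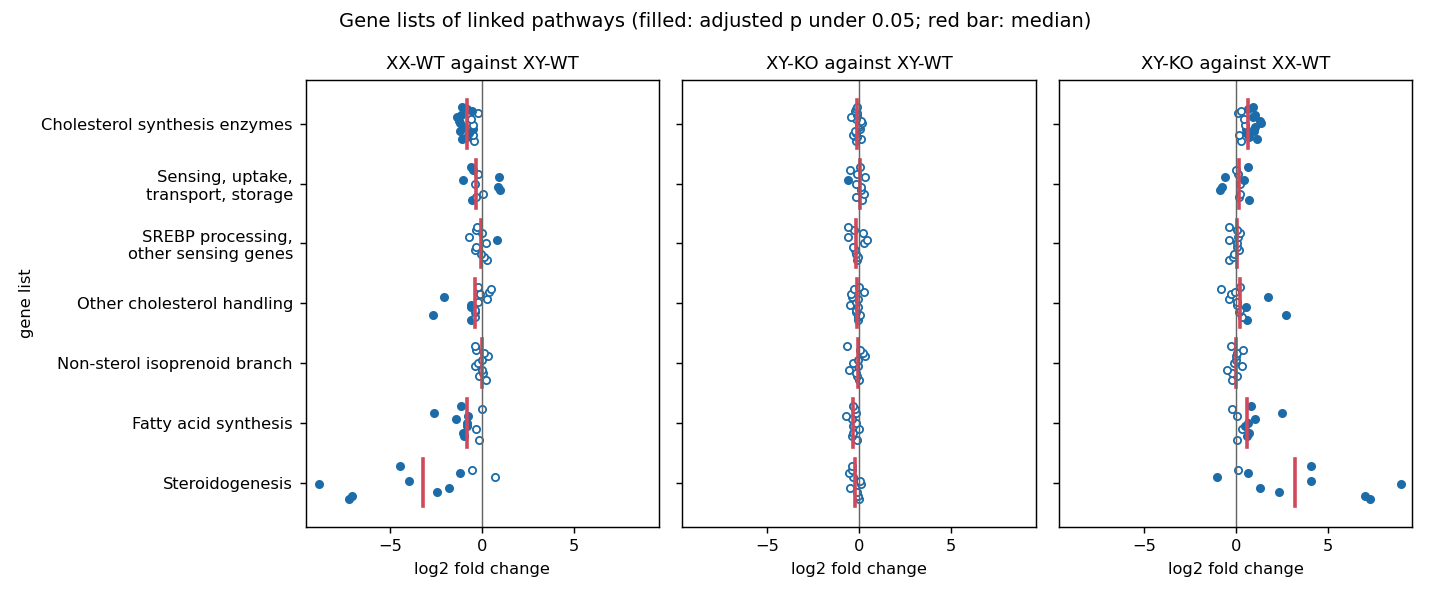
Log2 fold change (x axis) of each gene in the lists of linked pathways (y axis), in 3 panels by comparison, with filled points for an adjusted p under 0.05 and a red bar at each list's median. In XX-WT against XY-WT the medians of the enzymes (-0.80), fatty acid synthesis (-0.83) and steroidogenesis (-3.21) lie left of 0, and in XY-KO against XY-WT they are -0.12, -0.31 and -0.22.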

How the data were processed

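RNA from 9 fetal gonad samples was amplified by the SPIA method and sequenced as read pairs, per the labels' protocols. The submitters' processing notes list the GRCm38 genome and, among tools, limma 3.24.0, HTSeq 0.6.1p1, TopHat2 2.0.8 and Trimmomatic 0.30; their settings, gene filter and sample weights are not given in the sources used here. The authors' deposited tables, 1 per pair of groups, hold log2 fold changes and mean log2 expression, limma's t and log-odds scores, and p-values with Benjamini-Hochberg adjusted p-values over 15300 genes. Per-sample values were not analysed here, so depth is unknown.

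Each SE was obtained by dividing the fold change (log2) by t, and the 95% intervals used the 15.27 degrees of freedom that t and p imply. Adjusted p recomputed from the deposited p-values differed by at most 0.000769 of its value. A gene was called at an adjusted p under 0.05 in the authors' fit of 3 groups. Gene models were GENCODE M21 on GRCm38, for 15192 genes, and promoter windows RefSeq's on GRCm38.p6. A trend with GC content and transcript length (robust polynomial of degree 3, fitted at or above the median log2 expression of 3.19) was removed as an alternative; others were stricter limits and joint adjustment. All members were named, with up to 2 genes of smallest adjusted p per direction of each linked pathway list; cell type markers other than Sox9 are given as counts, short of that rule, and 1 gene it would name is not reported here. Members and lists were chosen with earlier results of these data known. The share of motifs in tested genes was added after seeing the data. Calculations used matplotlib 3.10.9, statsmodels 0.14.6, scipy 1.17.1, pandas 2.3.3, numpy 2.4.6 and Python 3.11.15, and they were tested on simulated data.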

Additional observations from a re-analysis of the deposited data

How the results depend on the processing

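No paired analysis was possible because the tables used hold group comparisons and no per-sample values, and for the same reason no replicate was left out. No value changed direction while called under any alternative run. With a 2-fold limit added, the enzymes lower in XX-WT than in XY-WT went from 13 to 7 and those higher in XY-KO than in XX-WT from 12 to 5. The other genes went from 3 to 0 higher and from 4 to 1 lower in XX-WT against XY-WT, from 1 to 0 lower in XY-KO against XY-WT, and from 3 to 0 in each direction in XY-KO against XX-WT. At an adjusted p under 0.01, the enzymes higher in XY-KO than in XX-WT numbered 7, and 0 of the other genes were lower in XY-KO than in XY-WT. That last count was 2 with the 3 comparisons adjusted together, Srebf2 joining Scap, and 0 after removal of the trend with GC content and length. Removing the trend ended 2 calls of single genes, Srebf2 in XX-WT and Scap in XY-KO, both against XY-WT, and joint adjustment ended those of Sc5d in XX-WT and Lrp8 in XY-KO against XX-WT. Genes at or above median expression alone kept the side of the threshold for all 69 values they gave. The exact element core in 1 enzyme window became 7 with at most 1 mismatch.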
